A study of Mus musculus with 21 samples.

Results

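The RNAs described here are the 4 adult globin messengers Hba-a1, Hba-a2, Hbb-bs and Hbb-bt and the heme synthesis messenger Alas2, measured in mouse brain. They were chosen by symbol and make up 5 of the 55416 gene IDs in the count table. In both oxygen conditions all 5 were higher in every library from mice lacking Pdcd10 in brain endothelium than in every control library, and the ratio of group means lay between 9.36 (Alas2 in hypoxia) and 18.7 (Hbb-bt in hypoxia). All 5 rose in knockouts, by a log2 fold change of 3.44 to 3.99 in normoxia and 3.21 to 4.21 in hypoxia, where 6.9% and 10.4% of the 19854 tested genes were called higher (edgeR adjusted p under 0.05) and 9.82% and 5.37% did not overlap in this direction. Without the libraries low in Y-linked RNA, 2 of them normoxic controls, none of the 5 was called in normoxia, as given below. That fit called 272 of all genes there, against 2415 with all libraries. The levels themselves stayed low: even in the library with the most of them, the 4 globins summed to 136 ppm (counts-per-million of the library).

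Adult mouse hemoglobin joins alpha chains, made from Hba-a1 and Hba-a2, with beta chains, made here from Hbb-bs and Hbb-bt, each chain holding a heme. Alas2 encodes the erythroid form of 5-aminolevulinate synthase, which starts heme synthesis in red cell precursors, while Alas1 serves that step in other tissues. Immature red cells carry globin and Alas2 messenger in the circulation and lose it as they mature, so these RNAs are commonly read in brain tissue as a trace of blood left in vessels or escaped from them, although low globin expression has also been described in neurons and glia. A bulk library cannot tell fewer cells of a type from less RNA per cell, nor blood inside vessels from blood outside them.

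The study models cerebral cavernous malformation, a disease of leaky, enlarged brain vessels, and compares astrocyte RNA between genotypes and oxygen levels. All mice carried floxed Pdcd10 alleles and the transgene Aldh1l1-EGFP/Rpl10a, which tags ribosomes of astrocytes, and were sampled at postnatal day 57; every sample is tagged male. Knockouts also carried Slco1c1-iCreERT2, a tamoxifen-inducible Cre of brain endothelium, and received 50 µg of 4-hydroxytamoxifen on postnatal day 1. Controls are Pdcd10fl/fl mice without Cre, called Flox in the labels, and the design text adds Cre carriers without injection as controls without saying which samples they are. Normoxia was 21% oxygen and hypoxia 12% oxygen for 7 days. The counts cover 4 control and 4 knockout libraries in normoxia, and 4 control (replicates 3 to 6) and 7 knockout libraries in hypoxia. Pull-down of tagged ribosomes appears in the design text, total RNA from brain tissue in the extraction text. Genotype, Cre and injection cannot be told apart in the knockout comparisons.

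Libraries held 45399320 to 65261791 counts. Pdcd10, the deleted gene, lay at 7.74 to 10.3 CPM (counts-per-million, scaled by TMM library size) in normoxic and 6.98 to 12.2 CPM in hypoxic knockouts and at 19.6 to 30.7 CPM in controls. All 9 astrocyte markers of a fixed list were detected, with 36080 to 60674 CPM between them. Knockout hypoxia replicates 1, 2 and 3 stood apart in mitochondrially encoded RNA, with 0.051 to 0.0759% of counts against 0.00344 to 0.00695% in replicates 4 to 7. The Y-linked gene Ddx3y was at or below 10 CPM in 5 libraries (2 control normoxia, 1 control hypoxia and 2 knockout hypoxia), against the male tag. Results are given with and without these libraries below. Nothing in the labels ties a library to its own animal, and the p-values therefore speak only of spread between libraries, which may be technical.

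The promoters of these genes are shown because the 4 globins moved together, because the gene copies are alike, and because the motifs named below are background elements of erythroid promoters. Sequences are RefSeq windows of 300 bases, 250 before to 50 after the start of each gene, in build GRCm38.p6; all 5 genes matched. They lie at chr11:32283422-32283721 on the plus strand for Hba-a1 and at chr11:32296242-32296541 on the plus strand for Hba-a2. The beta genes lie on the minus strand, Hbb-bs at chr7:103827879-103828178 and Hbb-bt at chr7:103813874-103814173, and Alas2 lies on the plus strand at chrX:150547167-150547466. Capitals mark the motif words.
Hba-a1: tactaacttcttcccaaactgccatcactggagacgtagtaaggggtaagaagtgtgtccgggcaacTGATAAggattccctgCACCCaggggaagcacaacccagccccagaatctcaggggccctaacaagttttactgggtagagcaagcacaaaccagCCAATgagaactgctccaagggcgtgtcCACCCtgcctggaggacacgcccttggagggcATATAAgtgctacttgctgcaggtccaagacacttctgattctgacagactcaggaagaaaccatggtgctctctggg
Hbb-bs: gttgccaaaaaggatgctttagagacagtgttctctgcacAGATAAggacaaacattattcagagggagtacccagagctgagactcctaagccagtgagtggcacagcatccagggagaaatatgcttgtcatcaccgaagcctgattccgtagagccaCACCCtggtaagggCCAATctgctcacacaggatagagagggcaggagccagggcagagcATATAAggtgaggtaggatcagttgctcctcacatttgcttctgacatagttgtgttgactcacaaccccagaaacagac
Hbb-bt: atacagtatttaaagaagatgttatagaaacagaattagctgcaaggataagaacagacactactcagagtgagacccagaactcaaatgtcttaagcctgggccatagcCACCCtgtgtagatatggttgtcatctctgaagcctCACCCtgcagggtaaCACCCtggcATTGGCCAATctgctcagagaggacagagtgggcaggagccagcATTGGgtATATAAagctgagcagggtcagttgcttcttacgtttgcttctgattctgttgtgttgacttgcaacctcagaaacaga
Alas2: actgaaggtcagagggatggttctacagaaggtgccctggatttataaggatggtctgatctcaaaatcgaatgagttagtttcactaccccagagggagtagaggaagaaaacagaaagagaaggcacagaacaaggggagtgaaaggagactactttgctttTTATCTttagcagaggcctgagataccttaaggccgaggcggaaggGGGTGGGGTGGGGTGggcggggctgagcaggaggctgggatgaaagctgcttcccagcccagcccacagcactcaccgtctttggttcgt
The window of Hba-a2 is not printed because 297 of 297 aligned bases equal those of Hba-a1. The windows of Hbb-bs and Hbb-bt shared 219 of 293 aligned bases (74.7%). Within the transcribed bases of these windows, the alpha copies were identical over 47 of 47 compared bases and the beta copies over 40 of 49.

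The GATA words searched, of the kind bound by GATA1, were AGATAA with its variant AGATAG, besides TGATAA with its variant TGATAG. The word CACCC, of the kind bound by KLF factors, was searched next, then the word CCAAT, all of these on both strands. The TATA word was ATATAA, searched on the gene's own strand. No match overlapped another, but words could touch, as the 2 central CCAAT words of Hbb-bt do. Hba-a1, Hba-a2 and Hbb-bs held all 4 kinds of word, as did 0.457% of the 32851 promoter windows of the reference. The TATA word stood 28 bases before the start of Hba-a1 and 30 before that of Hbb-bs, and is held by 5.99% of windows. Hbb-bt held CACCC in 3 places, CCAAT in 3 and the TATA word, but none of the GATA words (29.8% of windows hold one). Alas2 held 1 GATA word and 3 CACCC words, all on the other strand, with neither CCAAT (37.4% of windows) nor the TATA word; CACCC occurs in 57.5% of windows. A word is a match of letters and says nothing of what was bound.

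The first comparison set knockouts against controls in normoxia. Hba-a1 (ENSMUSG00000069919, chromosome 11) measured 1.42, 1.11, 0.281 and 0.556 CPM in control replicates 1 to 4 and 14.2, 3.22, 16.0 and 8.79 CPM in knockout replicates 1 to 4. The lowest knockout, replicate 2, was above the highest control. The fitted log2 fold change was 3.63 ± 0.63 (SE; edgeR adjusted p = 0.00171).

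Hba-a2 (ENSMUSG00000069917), the neighbouring alpha copy, measured 0.965, 0.945, 0.281 and 0.315 CPM in controls and 10.8, 2.42, 11.3 and 6.52 CPM in knockouts. As for Hba-a1, control replicates 1 and 2 were higher than 3 and 4, and the groups did not overlap. It rose by a log2 of 3.62 ± 0.57 (edgeR adjusted p = 0.000914).

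Of the beta genes on chromosome 7, Hbb-bs (ENSMUSG00000052305) measured 1.64, 0.555, 0.225 and 0.519 CPM in controls and 10.6, 3.14, 16.0 and 9.55 CPM in knockouts. Control replicate 1 stood above the other 3 controls and below every knockout. The log2 fold change was 3.70 ± 0.68 (edgeR adjusted p = 0.00255), and 4.50 without control normoxia replicate 1. Hbb-bt (ENSMUSG00000073940) was near the counting limit in controls, with 9, 16, 4 and 3 counts in replicates 1 to 4, or 0.138, 0.329, 0.0749 and 0.0556 CPM. Knockouts measured 3.29, 0.716, 3.56 and 1.88 CPM, all above the controls. Hbb-bt rose by a log2 of 3.99 ± 0.73 (edgeR adjusted p = 0.00266), and by 4.65 without control normoxia replicate 2.

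Alas2 (ENSMUSG00000025270, chromosome X) had 11, 9, 2 and 7 counts in normoxic controls, or 0.168, 0.185, 0.0374 and 0.130 CPM. The 95% Poisson interval of the 2 counts is 0.242 to 7.22 counts, and such intervals cover counting error only. Knockouts measured 2.74, 0.631, 1.74 and 0.644 CPM, with replicates 1 and 3 high, as for the globins. The log2 fold change was 3.44 ± 0.68 (edgeR adjusted p = 0.00442).

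All 5 were thus called in normoxia, where 12.2% of the 19854 tested genes were called and 6.9% were called higher. Every knockout library was above every control library for 9.82% of genes, and for all 5 of these. Ordered by log2 fold change among the tested genes, they ranked 17 (Hbb-bt), 22 (Hbb-bs), 24 (Hba-a1), 25 (Hba-a2) and 29 (Alas2). The median log2 fold change of all genes was -0.01. When 5 libraries low in Y-linked RNA were left out, which leaves 2 normoxic controls, the log2 fold changes were 3.02 to 3.37 and none of the 5 was called (edgeR adjusted p = 0.0624 to 0.117). That fit called 272 of all genes in normoxia, against 2415 in the main fit.

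**Figure D1:**
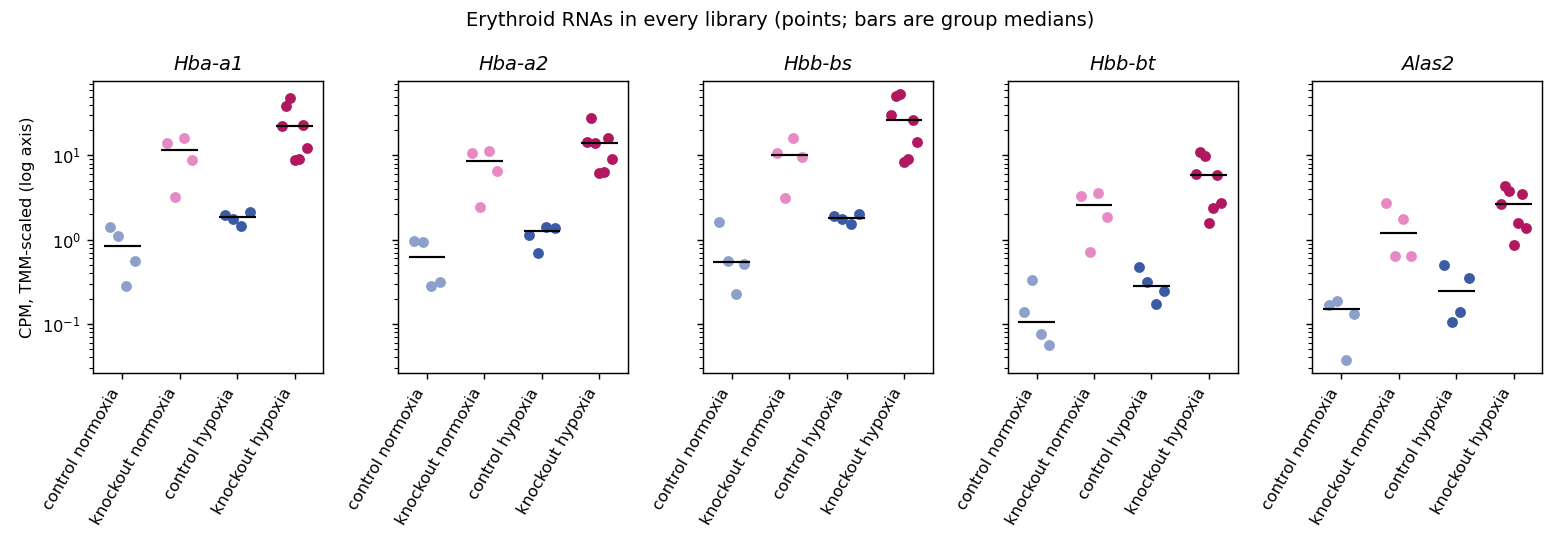
Level of the 5 RNAs in counts-per-million (CPM, log axis) in each of 19 libraries, by group; points are libraries and bars are group medians. In both oxygen conditions all knockout libraries lie above all control libraries of the same condition for each RNA.

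In hypoxia the same comparison held 4 controls and 7 knockouts, none of them a normoxia library, although the fit shares its estimate of spread. Hba-a1 measured 1.96, 1.75, 1.45 and 2.13 CPM in control replicates 3 to 6 and 8.77 CPM at lowest, 22.4 at the median and 48.6 at highest in knockouts. The gap between the groups was again clear, since the lowest knockout, replicate 4, was above 2.13 CPM. Hba-a1 rose by a log2 of 3.67 ± 0.58 (edgeR adjusted p = 0.000421).

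Hba-a2 measured 1.13, 0.701, 1.40 and 1.39 CPM in controls and 6.20, 14.1 and 27.7 CPM (lowest, median, highest) in knockouts. Its highest knockout was replicate 2, while Hba-a1 and Hbb-bs peaked in replicate 3. The log2 fold change was 3.55 ± 0.52 (edgeR adjusted p = 0.000243).

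Hbb-bs had the highest mean level of the 5 in hypoxic knockouts. It measured 1.89, 1.75, 1.54 and 2.04 CPM in controls and 8.44, 26.4 and 53.2 CPM (lowest, median, highest) in knockouts, a log2 fold change of 3.92 ± 0.62 (edgeR adjusted p = 0.000454). Hbb-bt measured 0.473, 0.316, 0.173 and 0.246 CPM in controls and 1.60, 5.88 and 11.1 CPM in knockouts. Its groups did not overlap, and it had the largest fold change of the 5 in hypoxia as in normoxia, 4.21 ± 0.64 on the log2 scale (edgeR adjusted p = 0.000319).

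Alas2 measured 0.506, 0.105, 0.138 and 0.352 CPM in controls and 0.870, 2.62 and 4.36 CPM in knockouts. Control replicate 3 and knockout replicate 4 came closest, at 0.506 and 0.870 CPM, the narrowest gap of the 5 genes in this comparison. The log2 fold change was 3.21 ± 0.58 (edgeR adjusted p = 0.0013).

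All 5 were called, against 19.7% of genes called in either direction and 10.4% called higher. Non-overlap in this direction was found for 5.37% of genes. The ranks by log2 fold change were 10 (Hbb-bt), 12 (Hbb-bs), 18 (Hba-a1), 20 (Hba-a2) and 29 (Alas2). Without knockout replicates 1, 2 and 3, which carry more mitochondrial RNA, the log2 fold changes were 2.85 (Hba-a1), 3.03 (Hba-a2), 3.01 (Hbb-bs), 3.36 (Hbb-bt) and 2.70 (Alas2), and all 5 were still called. Among libraries with Y-linked RNA alone they were 3.38 to 4.26, with all 5 called. Those 2 fits called 1697 and 1481 of all genes, against 3917 in the main fit.

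The share of globin varied widely among knockouts. The 4 globins summed to 36.6, 9.03, 47.0 and 26.0 ppm of all counts in knockout normoxia replicates 1 to 4, and to 25.02, 74.4 and 136 ppm (lowest, median, highest) in hypoxic knockouts. Controls held 0.836 to 4.17 in normoxia and 4.39 to 5.69 in hypoxia. In normoxia, knockout replicates 1 to 4 held 0.0214, 0.0065, 0.0122 and 0.00779% mitochondrial RNA, without overlap with the 0.00263 to 0.00363% of controls, and replicates 1 and 3 were highest in both mitochondrial RNA and globin. The 3 hypoxic knockouts with more mitochondrial RNA held 81.6, 136 and 133 ppm, the highest of that group; replicate 6 held 74.4 with 0.00344% mitochondrial RNA, the lowest share in the group. The part of mitochondrial RNA in the globin levels was not tested.

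The next question was whether oxygen moved these RNAs within a genotype. In controls, hypoxia gave log2 fold changes of 1.10 ± 0.62 (Hba-a1), 0.87 ± 0.57 (Hba-a2), 1.26 ± 0.67 (Hbb-bs), 1.04 ± 0.83 (Hbb-bt) and 1.07 ± 0.75 (Alas2). None was called (edgeR adjusted p = 0.622 to 0.779), where 0.0856% of genes were called; 1788 genes had an unadjusted p under 0.05. For Hba-a1 each hypoxic control was above each normoxic control, by a narrow margin of 1.45 against 1.42 CPM, as for 4.49% of genes. The other 4 overlapped. With the replicate block the values were 2.19 (Hba-a1), 1.59 (Hba-a2), 2.35 (Hbb-bs), 2.56 (Hbb-bt) and 1.64 (Alas2), and in libraries with Y-linked RNA alone 0.44, 0.17, 0.62, 0.51 and 0.51 in the same order. None was called in either (edgeR adjusted p = 0.0813 to 0.479 with the block), so the size in controls varied with the setting. The block kept replicates 3 and 4 of both groups. In normoxic controls these held 0.836 and 1.41 ppm of globin, against 4.17 and 2.86 ppm in replicates 1 and 2. The setting with Y-linked RNA alone kept normoxic controls 1 and 2.

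In knockouts, hypoxia gave log2 fold changes of 1.14 ± 0.49 (Hba-a1), 0.80 ± 0.44 (Hba-a2), 1.49 ± 0.53 (Hbb-bs), 1.27 ± 0.52 (Hbb-bt) and 0.84 ± 0.49 (Alas2). None of the 5 was called (edgeR adjusted p = 0.075 to 0.272), where 12.5% of genes were, and each overlapped between oxygen levels (2.97% of genes were higher in every hypoxic than in every normoxic knockout). Without knockout hypoxia replicates 1, 2 and 3 the values were 0.29 to 0.58. Hbb-bs was called with DESeq2 (1.47, adjusted p = 0.0498) and without knockout hypoxia replicate 4 (1.64, edgeR adjusted p = 0.0385) or replicate 5 (1.64, edgeR adjusted p = 0.0432).

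The difference between the 2 knockout effects, hypoxia minus normoxia, was 0.04 on the log2 scale for Hba-a1, with a 95% interval of -1.63 to 1.71. It was -0.07 (-1.58 to 1.45) for Hba-a2, 0.23 (-1.58 to 2.03) for Hbb-bs, 0.22 (-1.69 to 2.13) for Hbb-bt and -0.23 (-1.98 to 1.53) for Alas2. None was called (edgeR adjusted p = 0.959 to 0.992), with 0.0101% of genes called. The intervals leave room for knockout effects that differ by more than 2-fold in either direction.

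**Figure D2:**
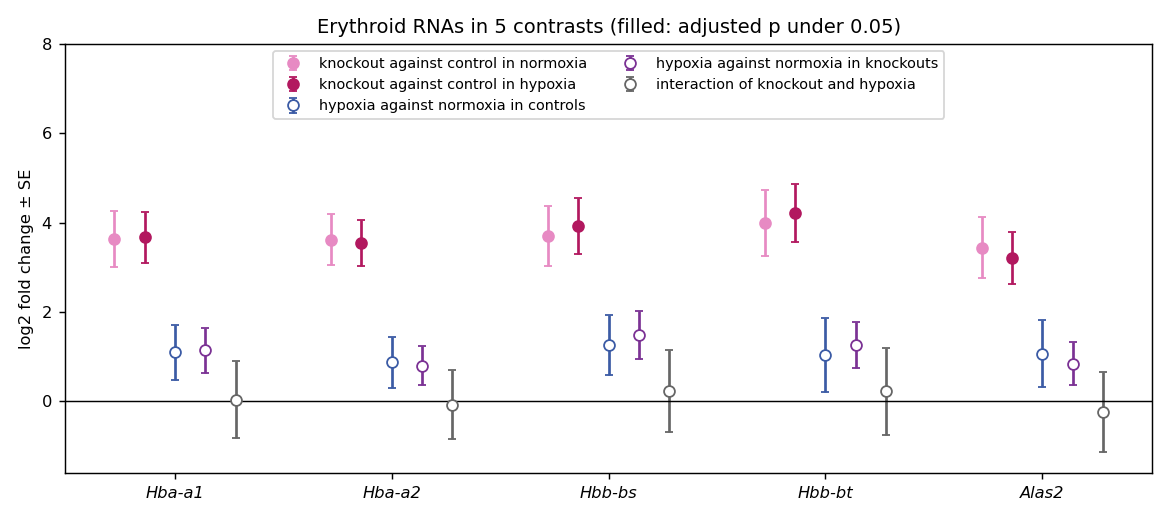
Log2 fold change of the 5 RNAs, with bars of 1 SE, in the 2 knockout comparisons, the 2 oxygen comparisons and the interaction; filled points had an edgeR adjusted p under 0.05. Both knockout comparisons lie between 3.21 and 4.21 for all 5 genes, and the oxygen comparisons between 0.80 and 1.49 are unfilled.

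The proportions between the globins were compared per length, as RPKM (counts scaled by library total and gene length). In normoxic knockouts the mean levels were 12.6 RPKM for Hba-a1, 11.3 for Hba-a2, 12.5 for Hbb-bs, 3.26 for Hbb-bt and 0.578 for Alas2. In hypoxic knockouts they were 30.2, 21.3, 37.8, 8.50 and 1.13 RPKM in the same order. The levels of Hbb-bs, Hba-a1 and Hba-a2 overlapped between libraries in both groups, although Hbb-bs was above Hba-a1 in each of the 7 hypoxic knockouts. Hbb-bt and then Alas2 were below the other 3 in every knockout library.

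Alpha RNA outweighed beta RNA by 1.36 to 1.82 in normoxic knockouts. In hypoxic knockouts the alpha to beta ratio ran from 0.975 to 1.52, with a median of 1.23, and controls spanned 1.37 to 2.34 in normoxia and 1.18 to 1.73 in hypoxia. Within hypoxic knockouts the lowest ratios, 1.04, 1.09 and 0.975, were those of replicates 1, 2 and 3, which had the most globin. The groups overlapped in this ratio.

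The alpha copies kept close to 1 proportion in knockouts. Hba-a1 to Hba-a2 was 1.08 to 1.17 in normoxic knockouts and 1.10 to 1.26 in 6 of 7 hypoxic knockouts. In knockout hypoxia replicate 3 it was 2.83, from 2908 counts of Hba-a1 and 845 of Hba-a2. Hbb-bs to Hbb-bt was 2.96 to 4.66 in normoxic and 3.50 to 4.95 in hypoxic knockouts. In controls, where counts were few, the 2 ratios ran from 0.821 to 2.05 and from 1.54 to 10.9. Copies may share or exchange reads, so the level of a single copy is uncertain. With copies summed, alpha rose by a log2 of 3.63 and beta by 3.75 in normoxia, and by 3.62 and 3.97 in hypoxia, all called by edgeR. The ratio of the 4 globins to Alas2, by RPKM, spanned 34.4 to 136 over all 19 libraries.

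**Figure D3:**
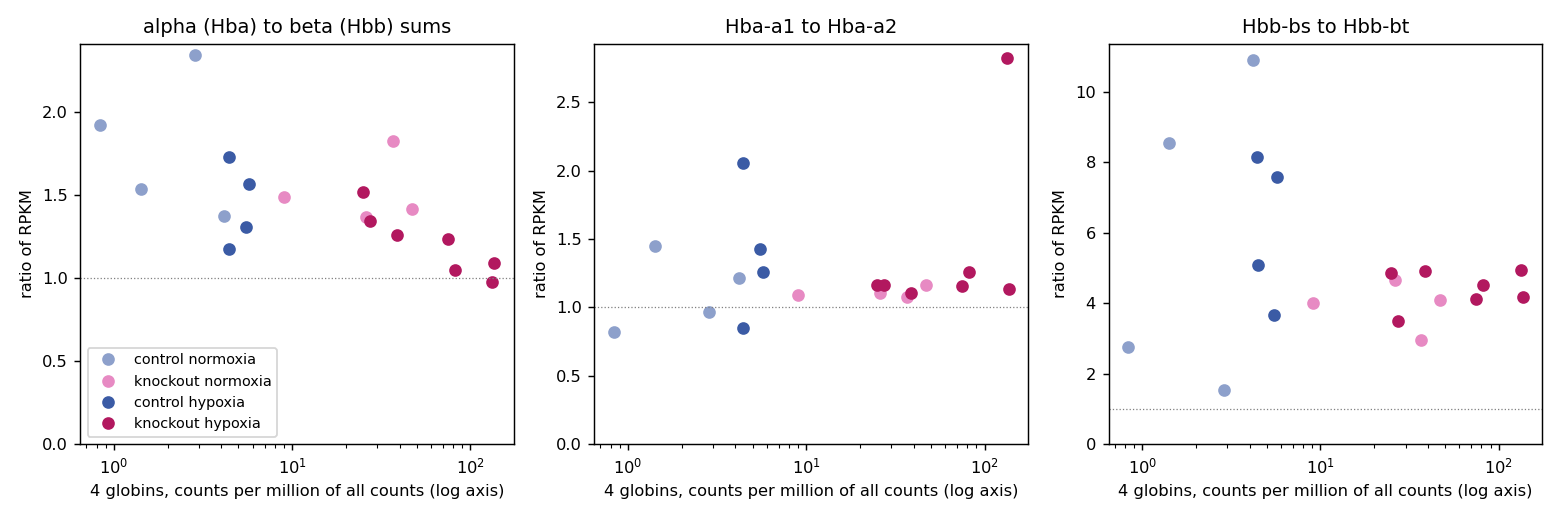
Ratios of RPKM (alpha to beta sums, Hba-a1 to Hba-a2, and Hbb-bs to Hbb-bt) against the summed counts of the 4 globins in ppm of all counts (log axis), 1 point per library. The ratios scatter in controls, which hold few globin counts, and Hba-a1 to Hba-a2 stands at 2.83 in knockout hypoxia replicate 3 against 1.10 to 1.26 in the other 6 libraries of its group.

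Other genes of the erythroid programme were followed through fixed lists. For all lists below, the shares over all genes were 6.9% higher and 5.27% lower in normoxia, and 10.4% higher and 9.37% lower in hypoxia. Of 9 other globins 3 were tested and Cygb alone was called, rising by 0.99 ± 0.23 in normoxia and 1.25 ± 0.21 in hypoxia (log2; edgeR adjusted p = 0.0102 and 0.000678). Cygb encodes cytoglobin, a globin of fibroblast-like and other non-erythroid cells, and measured 10.7 to 18.2 CPM in controls and 17.9 to 49.2 CPM in knockouts. The embryonic globins Hba-x, Hbb-bh1 and Hbb-bh2 had no counts in any library.

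The other 12 genes of heme synthesis did not follow Alas2. edgeR called none in normoxia (median log2 fold change -0.11; 3 had an unadjusted p under 0.05), where 5.27% of all genes were called lower; DESeq2 and limma-voom with sample weights each called 2 lower, Alas1 among them (-0.17, DESeq2 adjusted p = 0.0215, and -0.19, limma adjusted p = 0.0408). edgeR also called Alas1 in normoxia without control hypoxia replicate 3 (-0.18, adjusted p = 0.0452). In hypoxia 5 of 12 fell, against 9.37% of all genes, and none rose (median -0.10), led by the mitochondrial transporter Abcb10 (-0.45 ± 0.09, edgeR adjusted p = 0.0023), Tmem14c (-0.37 ± 0.09, adjusted p = 0.0105) and Slc25a38, which carries glycine into mitochondria (-0.34 ± 0.08, adjusted p = 0.0106). Alas1, the non-erythroid synthase, also fell in hypoxia (-0.20 ± 0.05, adjusted p = 0.0163), with no call when scaled by library size alone (-0.11), without control hypoxia replicate 4 (-0.16) or 5 (-0.17), with the replicate block (-0.19, edgeR adjusted p = 0.141) or in libraries with Y-linked RNA alone (-0.22, edgeR adjusted p = 0.0675). Of the 12, 3 fell in hypoxia with library size alone as scaling 2 without knockout hypoxia replicates 1, 2 and 3, and 1 in libraries with Y-linked RNA alone.

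Of 28 genes of the red cell membrane and late erythroid cells, 27 were in the table and 19 were tested. In normoxia 1 rose and 2 fell (median 0.11), and in hypoxia 5 rose and 4 fell (median 0.13). The first by adjusted p were Ermap, which fell by 1.34 ± 0.25 in hypoxia (edgeR adjusted p = 0.0016), Mkrn1 (0.33 ± 0.07 in hypoxia, adjusted p = 0.00222) and Slc25a39 (-0.26 ± 0.06 in normoxia, adjusted p = 0.00733). Without knockout hypoxia replicates 1, 2 and 3, 1 rose and 2 fell in hypoxia. Many of the 19 are also expressed outside red cells. Genes that define red cells were near 0, and the following 4 were chosen after their values were seen. Slc4a1, the anion exchanger band 3, had 2 counts in normoxic and 0 in hypoxic controls against 7 and 32 in knockouts. Kel had 2 counts in 1 library, Epb42 had 2 counts in normoxic controls and 12 in hypoxic knockouts, and Rhag had none in any library.

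Among erythroid transcription factors, 7 of 9 were tested; 1 rose and 1 fell in normoxia, and 2 rose and 1 fell in hypoxia. Ldb1, a cofactor of the GATA1 complex, fell by 0.29 ± 0.06 in normoxia (edgeR adjusted p = 0.00515), Bcl11a, a repressor of gamma globin in humans, rose by 0.96 ± 0.26 in hypoxia (adjusted p = 0.0182), and Klf1, the erythroid activator of beta globin, fell by 0.91 ± 0.26 in hypoxia (adjusted p = 0.0222). Gata1, chosen after its values were seen, had no counts in controls, 12 in normoxic knockouts and 18 in hypoxic knockouts, too few to be tested. Neither Bcl11a nor Klf1 was called in hypoxia without knockout replicates 1, 2 and 3 (0.51 and -0.70) or without control replicate 4 (0.90 and -0.77). Bcl11a was also not called without control replicate 5 (0.89), nor Klf1 without control replicate 3 (-0.81) or with the replicate block (-0.70). In libraries with Y-linked RNA alone neither was called in hypoxia (1.09 and -1.07, edgeR adjusted p = 0.0669 and 0.058), nor was Ldb1 in normoxia (-0.24).

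Of 6 genes of the erythropoietin pathway, 5 were tested; 1 rose and 1 fell in normoxia, and 1 rose and 2 fell in hypoxia. Epo, which encodes the hormone that drives red cell production and is made by astrocytes among other cells, measured 0.0306 to 0.150 CPM in normoxic controls and 0.563 to 2.54 CPM in normoxic knockouts. In hypoxia it measured 0.0701 to 0.475 CPM in controls and 0.298 to 2.73 CPM in knockouts, where the groups overlapped. Epo rose by 3.52 ± 0.80 in normoxia (log2; edgeR adjusted p = 0.0101) and by 2.49 ± 0.67 in hypoxia (adjusted p = 0.0157), the latter not called without control hypoxia replicate 4 (2.20) or 5 (2.42). The signal transducer Stat5b fell in both conditions (-0.35 ± 0.09 and -0.43 ± 0.08), and the transferrin receptor Tfrc, which brings iron into cells, fell in hypoxia (-0.48 ± 0.15). Stat5b in normoxia was not called without control replicate 2 (-0.34) or 3 (-0.33) or knockout replicate 3 (-0.32) or 4 (-0.31), nor Tfrc without control hypoxia replicate 4 (-0.51), 5 (-0.40) or 6 (-0.48) or knockout hypoxia replicate 2 (-0.45) or 3 (-0.46). Tfrc was also not called without knockout hypoxia replicates 1, 2 and 3 together (-0.30, edgeR adjusted p = 0.17). In libraries with Y-linked RNA alone, Epo was called in neither condition (3.92 in normoxia and 2.63 in hypoxia, edgeR adjusted p = 0.0824 and 0.0565). Neither Stat5b in normoxia (-0.32) nor Tfrc in hypoxia (-0.56) was called in those libraries.

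Genes that handle released hemoglobin and heme were measured beside these. Of 10 tested, 4 rose and 1 fell in normoxia, and 3 rose and 4 fell in hypoxia. Hmox1, heme oxygenase, which breaks heme open, measured 34.0 to 40.5 CPM in controls of both conditions and 45.4 to 97.1 CPM in knockouts without overlap. It rose by 0.85 ± 0.15 and 0.56 ± 0.14 (log2; edgeR adjusted p = 0.00213 and 0.00945). Blvrb, a biliverdin reductase, fell in both (-0.35 ± 0.10 and -0.42 ± 0.09), and Ftl1, a ferritin chain, rose in hypoxia (0.45 ± 0.10, adjusted p = 0.00379). The normoxia call of Blvrb was lost without any 1 of 5 libraries (control 1, 2 or 4, knockout 1 or 3), at -0.35 to -0.31. In libraries with Y-linked RNA alone Hmox1 was called in neither condition (0.75 in normoxia and 0.54 in hypoxia, edgeR adjusted p = 0.105 and 0.0801). Blvrb in normoxia was not called in those libraries (-0.39) or with the Y-linked covariate (-0.33).

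Markers of other blood cells give further values to set beside the globins. Of 9 platelet and megakaryocyte genes, 5 were tested; in normoxia 2 rose, Itga2b (0.85 ± 0.24, edgeR adjusted p = 0.0264) and Ppbp (2.81 ± 0.82, adjusted p = 0.0331), and in hypoxia none was called by edgeR (1 had an unadjusted p under 0.05), DESeq2 or limma-voom. Without control normoxia replicate 3 or 4 or knockout normoxia replicate 3 neither gene was called (Itga2b 0.75, 0.86 and 0.55; Ppbp 2.57, 2.57 and 2.46); nor was Itga2b without control replicate 1 (0.80), or Ppbp without control replicate 2 (2.60) or knockout replicate 1 (2.68). The list summed to 4.03 to 5.86 CPM in normoxic controls and 5.15 to 10.7 in normoxic knockouts, and to 4.00 to 5.65 and 4.75 to 5.87 CPM in hypoxia. Of 11 neutrophil genes only Mmp9 passed the filter and it was not called; Elane and Ly6g had no counts, and the list summed to at most 1.27 CPM in all libraries but 1.

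Of 12 lymphocyte genes 5 were tested. Ighm, the immunoglobulin mu chain, rose in hypoxia (1.51 ± 0.26, edgeR adjusted p = 0.00095), while the T cell gene Cd3e fell in normoxia (-3.97 ± 0.87, adjusted p = 0.00766) and hypoxia (-2.63 ± 0.63, adjusted p = 0.00844), and the B cell gene Cd79a fell in both (-1.33 ± 0.43 and -1.43 ± 0.36). Cd3e in hypoxia was not called without control replicate 4 (-2.12), and the normoxia call of Cd79a (adjusted p = 0.0493) was lost under 17 of 32 settings. edgeR called neither of 2 tested blood monocyte genes in either condition (2 and 1 had an unadjusted p under 0.05). Ccr2, a chemokine receptor of monocytes, had 2.08 in normoxia and 1.37 in hypoxia (edgeR adjusted p = 0.0819 and 0.12); it was called with DESeq2 in normoxia (2.16, adjusted p = 0.0473) and with limma-voom with sample weights in hypoxia (1.87, adjusted p = 0.0366). Of 3 tested plasma protein genes, Apoa1 fell in normoxia (-1.55 ± 0.35, adjusted p = 0.0092).

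Some vessel and brain cell markers moved as well. Over all genes, for comparison with these lists and those of the next paragraph, 6.9% rose in normoxia and 10.4% in hypoxia, and 5.27% and 9.37% fell. In normoxia 4 of 8 endothelial genes rose and in hypoxia edgeR called none (2 had an unadjusted p under 0.05), nor did DESeq2 or limma-voom, while the replicate block gave 1; Vwf, a clotting protein of endothelium, measured 0.786 to 3.19 CPM in normoxic controls and 5.13 to 53.5 CPM in normoxic knockouts, a log2 fold change of 3.91 ± 0.69, and 1.02 ± 0.58 in hypoxia, where it was not called. The endothelial list summed to 12.7 to 32.4 CPM and 31.1 to 112 CPM in normoxic controls and knockouts and to 17.4 to 35.2 and 19.6 to 33.0 CPM in hypoxia. Mural genes rose in 6 of 7 cases in normoxia and 4 of 7 in hypoxia, among them the pericyte gene Rgs5 (2.49 ± 0.32 and 2.19 ± 0.30). Their list summed to 47.9 to 76.9 and 84.8 to 104 CPM in normoxia and 43.4 to 67.6 and 54.4 to 70.5 CPM in hypoxia.

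Of 8 microglial genes 5 rose in each condition; they summed to 47.5 to 55.5 and 62.3 to 118 CPM in normoxic controls and knockouts and to 39.0 to 52.6 and 65.9 to 86.0 CPM in hypoxia. Neuronal genes rose in 1 of 9 cases in normoxia and 5 in hypoxia, and summed to 655 to 981 and 922 to 1912 CPM in normoxia and 730 to 1128 and 893 to 3440 CPM in hypoxia. Oligodendrocyte genes rose in 1 and 3 of 7 cases, and summed to 1028 to 1239 and 1313 to 1453 CPM in normoxia and 1059 to 1152 and 1303 to 1898 CPM in hypoxia. Of 9 astrocyte genes 2 rose in normoxia, and 2 rose and 4 fell in hypoxia. They summed to 52022 to 56628 and 49565 to 60674 CPM in normoxic controls and knockouts and to 50730 to 57548 and 36080 to 52861 CPM in hypoxia, where knockout replicates 1, 2 and 3, the highest in globin, held 36629, 36080 and 39084 CPM. Without knockout hypoxia replicates 1, 2 and 3, 1 mural, 0 neuronal, 3 microglial and 1 oligodendrocyte gene were called in hypoxia, all higher, and 5 neuronal genes in normoxia. In libraries with Y-linked RNA alone each list named here had at most 1 call in normoxia; in hypoxia 2 mural, 0 neuronal, 3 microglial and 1 oligodendrocyte gene were called. With the replicate block Hmox1 (0.82, edgeR adjusted p = 0.0545), Vwf (3.49), Ldb1 (-0.27), Slc25a39 (-0.24), Itga2b (0.80), Apoa1 (-1.56), Stat5b (-0.34) and Blvrb (-0.34) were not called in normoxia. The part of these marker differences in the globin result was not tested.

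**Figure D4:**
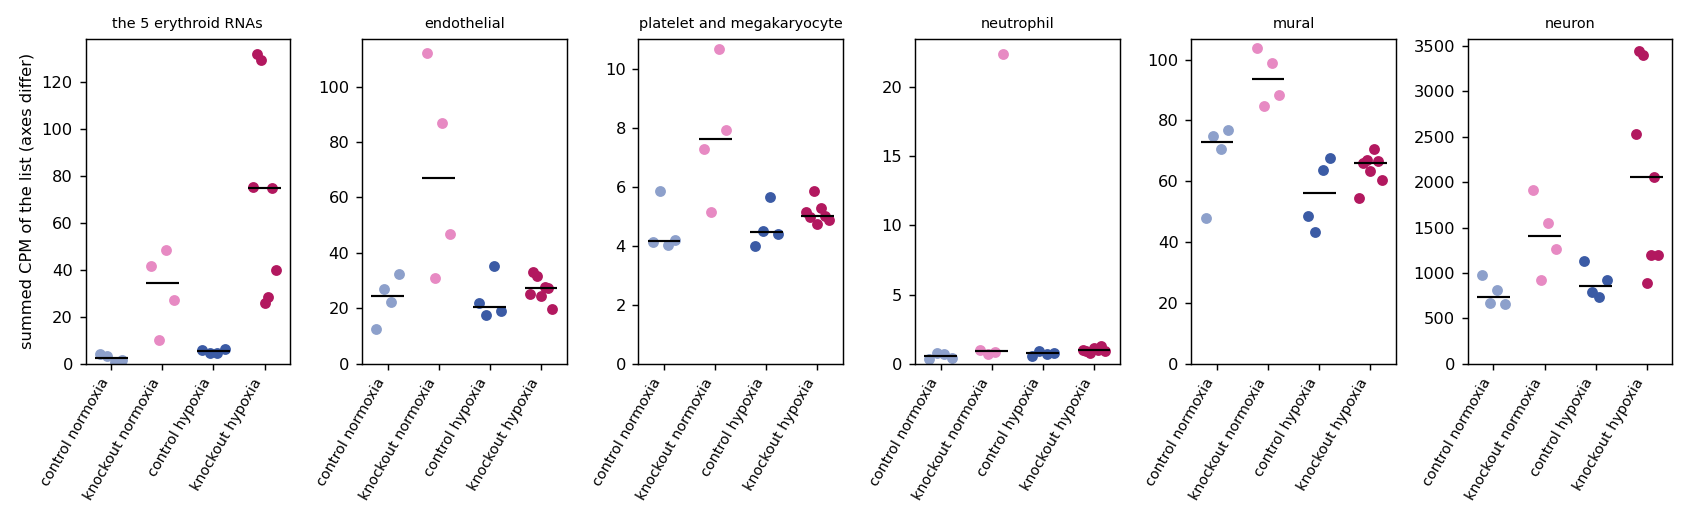
Summed CPM of the 5 erythroid RNAs and of 5 marker lists in each library, by group; points are libraries, bars are medians, and the linear axes differ between panels. The endothelial list reaches 112 CPM in normoxic knockouts and at most 33.0 CPM in hypoxic knockouts, while the erythroid RNAs reach 48.5 and 132 CPM.

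Libraries of 1 group differed widely in globin, and the genes that varied most like globin within groups were sought. Likeness was Pearson's r between a gene's log2(CPM + 0.5) and the mean of the 4 globins, both as deviations from their group means over 19 libraries; it is a description, since libraries share depth, RNA input and dissection across genes. Alas2, outside the mean, had r = 0.862 and rank 338 of 19854. Over all genes the 5th, 50th and 95th percentiles of r were -0.702, -0.02 and 0.786, so high values were common.

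The 10 most alike genes outside the 5 were Scg2 (r = 0.963), Rgs5 (0.955), Chgb (0.950), Efna3 (0.946), Klc1 (0.941), Lrrfip1 (0.941), Uchl1 (0.939), Serpini1 (0.939), Bin1 (0.938) and Tmem59l (0.938). Scg2 and Chgb encode granins of secretory granules, and Uchl1 a ubiquitin hydrolase abundant in neurons. Without knockout hypoxia replicates 1, 2 and 3 (16 libraries) the first 3 stood at 0.944, 0.937 and 0.941, and without the libraries farthest from the median in globin (knockout hypoxia 4 and knockout normoxia 2) at 0.958, 0.933 and 0.915. Scg2 measured 45.4, 18.6, 44.3 and 31.3 CPM in knockout normoxia replicates 1 to 4 and 17.5 to 86.2 CPM in hypoxic knockouts, lowest in replicate 4 and highest in replicate 2. Rgs5 measured 32.1, 11.4, 31.2 and 23.1 CPM and 14.4 to 36.7 CPM in the same libraries. Both were low where globin was low, in knockout normoxia replicate 2 and knockout hypoxia replicates 4 and 5, and Rgs5 also in knockout hypoxia replicate 7 (15.7 CPM). The other mural genes of the list ranged in r from -0.695 (Pdgfrb) to 0.784 (Abcc9). Cygb followed at 0.919 (rank 44), whereas Epo had r = -0.176. Most astrocyte genes ran opposite to globin within groups. Of the 9 on the list, 7 had r of -0.879 (Aldh1l1, a folate enzyme of astrocytes) to -0.655 (Aqp4, a water channel), the other two being S100b (-0.263) and Gfap, the astrocyte filament gene (-0.153).

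**Figure D5:**
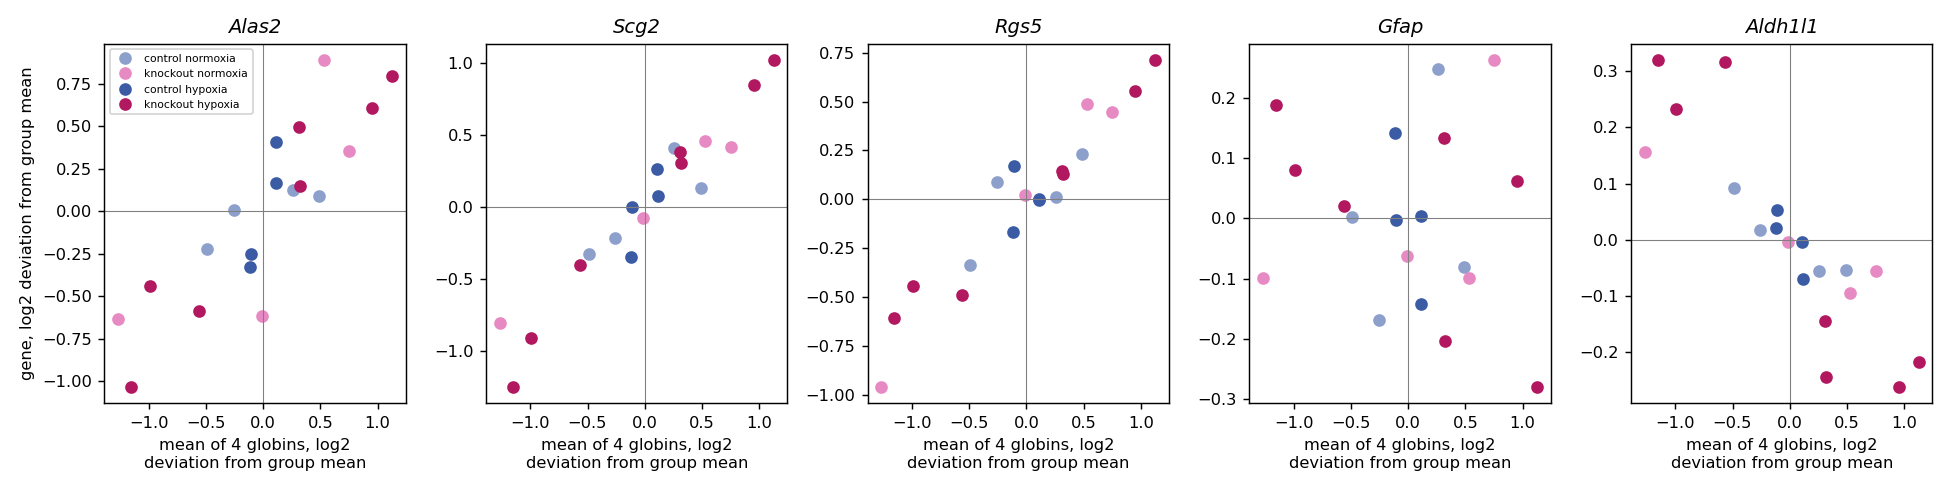
Deviation of Alas2, Scg2, Rgs5, Gfap and Aldh1l1 from their group means against that of the mean of the 4 globins, both in log2(CPM + 0.5), 1 point per library and colour by group. Alas2 (r = 0.862), Scg2 (0.963) and Rgs5 (0.955) rise with the globins within groups; of 9 astrocyte genes Gfap (-0.153) lay nearest 0 and Aldh1l1 had the most negative r (-0.879).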

How the data were processed

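RNA of mouse brain was measured in 19 libraries; of 21 labelled samples, 2 (hypoxic controls 1 and 2) were not analysed here. Gene counts and RPKM values were deposited by the authors; dividing each count by its library total and a gene length gives the RPKM (relative difference up to 1.73e-13); the lengths were 812 (Hba-a1), 667 (Hba-a2), 768 (Hbb-bs), 703 (Hbb-bt) and 2403 bases (Alas2). Libraries were made with a stranded mRNA kit from RNA of RIN over 8.0, per the labels. HISAT2, edgeR and the build GRCm39 are named per the submitters' processing notes, without versions; the counter and its strand setting are not given in the sources used here. Among counts of 2 to 21, 65.9% were even, which would lower the counting precision if mates of a pair were counted apart. Symbols matched 52083 of 55416 IDs.

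Counts were filtered with filterByExpr (19854 genes), scaled by TMM and fitted with edgeR 4.0.16 (robust quasi-likelihood test) in R 4.3.3, 1 fit of 4 group terms over all 19 libraries, with Benjamini-Hochberg adjustment over all tested genes and a call at an adjusted p under 0.05. CPM is scaled by TMM library size. SEs of the interaction combine those of both knockout contrasts. The fit was tested on simulated counts. Alternatives used DESeq2 1.42.0 and limma-voom 3.58.1, other scalings and filters, a replicate block, a Y-linked covariate, summed copies and left-out libraries. The design was written for 21 libraries.

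The 5 genes and all lists were chosen with earlier results of these data known. From each list, up to 3 members with the smallest adjusted p in either knockout comparison are named (1 by p where none was called), with the 10 genes most like globin within groups. Alas1, the counterpart of Alas2, and Gfap were added after their values were seen. Some genes of the red cell list are counted but not reported by name here. Not every setting that changed the call of a gene on a list is given.

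Shared replicate numbers were checked through the correlation of same-numbered deviations. In hypoxia, between knockouts and controls, it was 0.384, 0.169, 0.212 and 0.168, all over 0.1. Between oxygen levels in knockouts it was 0.062, -0.39, 0.201 and 0.289. The numbers may be pairs in hypoxia, but differently numbered libraries were not compared, so these values cannot decide it. The main fit used no pairs in any comparison. The replicate block was run for each comparison as an alternative. In normoxia the lowest was -0.076. Knockout hypoxia 4 and 5, the closest replicates, differed by a median chi-square of 2.04 (0.45 for independent counts).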

Additional observations from a re-analysis of the deposited data

Results flagged for a closer look

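Dixon's rule was applied to 64 groups of values, of which chance alone would be called in about 1 in 20, and 3 held a library that stood apart. The ratio of Hba-a1 to Hba-a2 by RPKM was 2.83 in knockout hypoxia replicate 3, against 1.10 to 1.26 in the other 6 libraries of its group. The summed level of the platelet and megakaryocyte list was 5.86 CPM in control normoxia replicate 2, against 4.03 to 4.21 CPM in the other 3. The summed level of the neutrophil list was 22.4 CPM in knockout normoxia replicate 4, against 0.699 to 0.975 CPM in the other 3; Ltf, which encodes lactoferrin and was singled out after its values were seen, had 1139 counts there and 1145 in the whole group.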

How the results depend on the processing

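All 5 genes were called in both knockout comparisons under all 13 alternatives and all 19 fits that left out a library, with 1 exception in normoxia. With libraries that hold Y-linked RNA alone, an alternative chosen after seeing the data, 0 of 5 and 272 of all genes were called there. Log2 fold changes ran from 3.02 to 4.11 in normoxia and 2.70 to 4.31 in hypoxia over the alternatives. The replicate block, which in hypoxia kept replicates 3 to 6 of both groups, changed no call of the 5. With it the hypoxia values were 3.28 (Hba-a1), 3.14 (Hba-a2), 3.37 (Hbb-bs), 3.83 (Hbb-bt) and 3.16 (Alas2). It called 1563 and 2602 of all genes in normoxia and hypoxia, against 2415 and 3917. For oxygen in knockouts, 1 of 5 (Hbb-bs) was called with DESeq2, and 0 to 1 when a library was left out. Over all settings the called genes ranged from 272 to 3388 and 1481 to 4803 in the knockout comparisons, 3 to 400 and 1 to 3786 in the oxygen comparisons of controls and knockouts (17 and 2489 in the main analysis), and 2 to 107 for the interaction (2). With library size alone as scaling, 1172 genes rose and 1311 fell in normoxia and 2855 rose and 1244 fell in hypoxia, against 1369 and 1046, and 2057 and 1860. For oxygen in knockouts that scaling gave 2666 up and 1120 down, against 946 and 1543, and moved the median log2 fold change of all genes from 0.02 to 0.13 (interaction 0.12).

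The interaction, never called, changed sign under some settings, and the cause was not tested. It was -0.46 (Hba-a1), -0.59 (Hbb-bs), -0.017 (Hbb-bt) and 0.030 (Alas2) with limma-voom; -0.23 (Hba-a1), -0.14 (Hbb-bs) and -0.12 (Hbb-bt) with the replicate block; and -0.80, -0.71 and -0.65 for these 3 without knockout hypoxia replicates 1, 2 and 3. For Hba-a1 with copies summed it was -0.0037. For Hba-a2 it was 0.050 with library size alone, 0.0020 with the Y-linked covariate and 0.66 in libraries with Y-linked RNA alone, where Alas2 had 0.36. Leaving out each library in turn gave -0.36 to 0.33 (Hba-a1), -0.38 to 0.17 (Hba-a2), -0.58 to 0.56 (Hbb-bs), -0.43 to 0.53 (Hbb-bt) and -0.49 to 0.29 (Alas2). Counts of 2 to 16 for Alas2 and Hbb-bt in normoxic controls, and of 6 to 31 and 10 to 29 in hypoxic controls, limit the precision of their fold changes.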
